A study of Sus scrofa with 50 samples.

Results

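The 8 libraries described here are the brain libraries of Korean minipigs (Sus scrofa) in which transcripts of pituitary hormones were abundant, out of 50 libraries in the series. They are the libraries labelled brain of 4 ET-type animals (S0242, S0276, S0309 and S0326) and 4 L-type animals (S0349, S0377, S0384 and S0385). They were compared with 9 backfat, 9 lymph, 9 loin and 10 tenderloin libraries, which makes 37 libraries of other tissues. These come from the same animals and from S0235 and S0355, so the libraries are paired by animal. ET and L are used as the labels give them, no treatment is named, and the labels used here state neither age nor sex nor a brain region.

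A gene counted as enriched when its mean in the 8 brain libraries, with the types averaged, exceeded the mean of each of the other tissues by 2 log2 units or more on the scale log2(TPM + 1), with every difference at an adjusted p under 0.05 (limma). TPM is a length-normalised share of the transcripts in a library, and a gene is here the closest Swiss-Prot protein of the assembled transcripts. In this way 1223 of 13448 genes tested were enriched, which is 9.09%. By adjusted p under 0.05 alone (limma), with no limit on the size of the difference, brain was higher than backfat in 63.1% of the genes. It was higher than lymph in 53.8%, loin in 74.0% and tenderloin in 76.0%. The brain libraries of S0235 and S0355 were left out for their measured profile, and the enriched genes were chosen on the contrast itself, so the levels given below describe the set and are not a test of it.

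The anterior lobe of the pituitary holds endocrine cells that each make particular hormones: corticotrophs make POMC, the precursor of corticotropin, lactotrophs make prolactin, and gonadotrophs and thyrotrophs share the alpha subunit CGA. These cells store hormones in dense-core granules, where granins pack the cargo and convertases cut precursors, and release them by calcium-triggered fusion. The posterior lobe holds glia-like pituicytes and the axon endings of hypothalamic neurons that make vasopressin and oxytocin.

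The libraries were checked against markers of tissues that they could hold. The skeletal muscle list summed to 11.2 to 37.6 TPM in the 8 brain libraries, the adipocyte list to 5.84 to 38.8 and the oligodendrocyte list to 129 to 228. In the brain libraries left out, the oligodendrocyte list summed to 39575 and 56647 TPM. The astrocyte list summed to 523 to 2281 TPM in the 8 libraries, most of it S100B (480 to 2158), with GFAP at 0.985 to 43.6, and to 14044 and 26652 in the left-out libraries. Of 7 hormone genes listed, POMC, PRL and CGA had a matched transcript and GH1, TSHB, LHB and FSHB were not analysed here. The libraries are called pituitary-like for the hormone transcripts by which they were set apart, so these are no check of that name. Of the lineage factors listed, 17 of 23 tested were enriched, 6 were not and 19 were not analysed here. The share enriched over all genes tested was 9.09%. The lists were chosen with earlier results of these data known, so their counts are no check of the name either. S0355 backfat, S0355 loin and S0235 lymph were left out because their markers went against their labels. The muscle list, for example, summed to 22.1 TPM in the loin library of S0355 and to at least 59699 in the other 9. In bulk tissue, fewer cells of a type and less RNA per cell cannot be told apart.

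Within the 8 brain libraries, those of S0326 (ET) and S0384 (L) stood apart. Of the 1223 enriched genes, 645 were lower in both than in each of the other 6 libraries (52.7%) and 117 were higher in both (9.57%). Over all genes tested these shares were 34.2% and 10.7%. A principal component of the enriched genes, with weights of 0.63 for S0326 and 0.57 for S0384 and -0.28 to -0.02 for the others, held 69.3% of their variance. An individual library had between 806 (S0326) and 1180 (S0377) of the enriched genes past the same 2 log2 units over every other tissue, with 959 in S0384. With both left out, 1333 genes were enriched, among them 1159 of the 1223 (94.8%).

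POMC, PRL and CGA were the matched members of the pituitary hormone list, and they took 2.10% to 8.30% of all TPM in a brain library (median 5.02%). POMC stood at 5271 TPM in the lowest of the 8 brain libraries, 13426 at the median and 77973 in the highest, with a mean of 21022 ± 24054 (SD, n = 8). Every other tissue library was at 8.41 TPM or less. This separation belongs to the choice of the 8 libraries by hormone transcripts, and the brain libraries left out were at 6.92 and 7.75 TPM. Over all genes tested, 13.6% had all 8 brain libraries above every library of the other tissues. The highest value was that of S0326, and without S0326 and S0384 the mean was 11411 ± 7100 (SD, n = 6).

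PRL, prolactin, lay at 805 TPM in the lowest brain library, 12459 at the median and 40121 in the highest, against at most 1.93 in any other tissue library. CGA lay at 2085, 12335 and 28265 TPM (lowest, median and highest), against at most 2.59. S0326 and S0384 were the lowest libraries for these genes. They had PRL at 1331 and 805 TPM and CGA at 3690 and 2085, while POMC stood at 77973 and 21736. Without them the mean of PRL was 20727 ± 12571 TPM and that of CGA 17231 ± 8585 (SD, n = 6 each). The brain libraries left out had POMC at 6.92 and 7.75 TPM, PRL at 14.0 or less and CGA at 0.737 and 4.46. RefSeq places POMC on chromosome 3 (113661712 to 113668558), PRL on chromosome 7 (17451367 to 17463771) and CGA on chromosome 1 (55552675 to 55569057) of Sscrofa11.1. Each was matched by 1 assembled transcript.

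**Figure D1:**
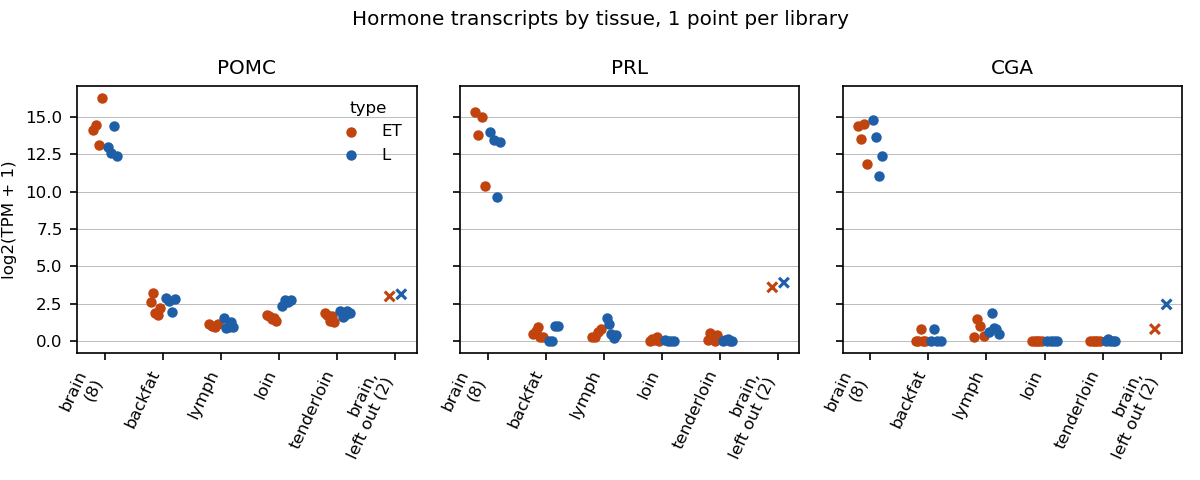
Levels of POMC, PRL and CGA as log2(TPM + 1) in every library, by tissue (x axis) and type (colour), with the brain libraries left out shown as crosses. All 8 brain points of each gene lie above every point of the other tissues, which belongs to the choice of these libraries by hormone transcripts. The 2 low PRL points are S0326 and S0384.

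Of 35 other peptide and regulator genes listed, 16 were matched, 14 were tested and 7 were enriched, beside 9.09% of all genes tested. The 7 were NTS, CARTPT, AVP, OXT, NPPC, INHBB and NUCB2. These peptide genes varied widely among the 8 libraries. OXT, the oxytocin precursor, ranged from 10.5 TPM (S0349) through a median of 87.8 to 945 (S0384), with 919 in S0326, and was listed at 0 in all 37 other libraries. AVP, the vasopressin precursor, ranged from 4.62 (S0349) through 25.9 to 301 (S0326), with 111 in S0384, against at most 2.80 elsewhere. S0326 and S0384 were thus the highest brain libraries for these posterior lobe peptides and the lowest for PRL and CGA. Of the brain libraries left out, S0355 had OXT at 167 and AVP at 168 TPM, and S0235 had 0.907 and 0.253.

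NTS, the neurotensin precursor, was at 3.42 TPM in S0384, 243 at the median and 726 in S0242, and its lowest brain value lay under the highest lymph value of 5.45. CARTPT, the precursor of CART peptides, was at 2.40 to 47.7 TPM with a median of 17.0 and was listed at 0 in every other tissue library. It was at 29.0 TPM or more in S0242, S0309, S0377 and S0385, at 3.57 or less in S0326, S0349 and S0384, and low in S0276 too, a division that did not follow type. NPPC, the C-type natriuretic peptide precursor, was at 4.95, 10.1 and 110 TPM (lowest, median and highest), and overlapped with loin, which reached 9.60. Its smallest difference was 2.69 log2 units, 1.72 with median-ratio scaling and 1.94 without S0326 and S0384.

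NUCB2, from which nesfatin-1 is cut, was at 82.1, 256 and 447 TPM against at most 47.0 elsewhere. INHBB, the beta B subunit of inhibin and activin, was at 17.0, 40.8 and 62.3 TPM against at most 12.9, and its smallest difference of 2.65 became 1.98 with median-ratio scaling. GALP, galanin-like peptide, which was named from its hormone activity term in the deposited annotation and not from the list, was at 10.8, 19.3 and 54.8 TPM against at most 1.40. The 7 listed peptides that were tested and not enriched were PENK, TAC3, CCK, NMB, INHA, FST and AGT. PENK, the proenkephalin gene, had 3.62 to 100 TPM in brain and up to 348 in backfat. NMB, neuromedin B, had a smallest difference of 1.88. INHBA and EDN3 were under the level needed for testing, and the other 19 listed genes were not analysed here.

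In the list of granins and processing enzymes, 11 of the 14 matched members, of 18 listed, were enriched, and in all 11 every brain library lay above all 37 others. Over all genes tested, 9.09% were enriched, and the brain libraries lay above all others in 1833 genes, 13.6%. Within the enriched set they did so in 1074 of 1223 genes, so this is common to the set and not particular to granule genes. SCG2, a granin, was at 1186, 2007 and 3205 TPM (lowest, median and highest) against at most 0.502 elsewhere, a smallest difference of 10.76 ± 0.14 log2 units (SE). CHGA, chromogranin A, was at 246, 915 and 1846 TPM against at most 0.889. Its low values were those of S0384 (246) and S0326 (258), and the other 6 libraries lay at 648 to 1846. VGF, a granule protein cut into several peptides, differed in order: it was highest in S0276 (441 TPM) and S0384 (314), and lay at 120 to 195 in the remaining 6.

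SCG5, the chaperone of convertase 2, was at 664, 1645 and 2373 TPM against at most 66.0 in lymph. PCSK2, convertase 2 itself, was at 19.3, 73.5 and 262 TPM against at most 2.53, with its highest values in S0326 (262) and S0384 (194). Chaperone and convertase thus ran in opposite order in those libraries, where SCG5 was lowest. PCSK1N, proSAAS, an inhibitor of convertase 1, was at 862, 1167 and 1903 TPM against at most 43.4. CPE, the carboxypeptidase that trims cut peptides, was at 59.9, 243 and 328 TPM against at most 19.3, and its low values were those of S0326 (59.9) and S0384 (62.5). QPCT, which forms pyroglutamate ends on peptides, was at 46.7, 111 and 149 TPM against at most 40.3.

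PTPRN and PTPRN2 are phosphatase-like proteins of the granule membrane. PTPRN was at 136, 198 and 289 TPM against at most 2.61, and PTPRN2 at 36.7, 130 and 154 against at most 0.716. SCG3, which helps granins into granules, was at 97.0, 170 and 202 TPM against at most 6.20. The members not enriched were the broadly expressed processing enzymes FURIN (smallest difference 0.91), CPD (0.25) and PAM (0.95). PAM, the peptide-amidating enzyme, was at 122 to 219 TPM in brain and reached 229 in backfat. The brain libraries left out differed among granule genes: SCG3 (110 and 186 TPM) and CPE (220 and 227) lay within the range of the 8, whereas SCG2 was at 21.6 and 3.65 and CHGA at 32.6 and 14.2.

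Of 32 genes of regulated exocytosis, 27 were matched, 26 were tested and 21 were enriched, beside 9.09% of all genes tested. For 20 of the 21 every brain library lay above all others, as it did in 1074 of the 1223 enriched genes. The 8 most abundant of the 21 are named. SNAP25, a membrane SNARE of regulated fusion, was at 317, 556 and 664 TPM against at most 1.67, a smallest difference of 8.64 ± 0.16 log2 units (SE). CADPS, which primes dense-core granules, was at 19.2, 97.4 and 123 TPM against at most 0.109, and again S0326 (19.2) and S0384 (19.7) were low. SYTL4, which tethers granules, was at 46.5, 86.7 and 151 TPM against at most 12.9 in backfat.

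SYP, a vesicle membrane protein, was at 56.3, 177 and 200 TPM against at most 8.42. SYT4 and SYT5, members of the synaptotagmin family, had medians of 163 and 158 TPM against at most 0.0254 and 1.76 elsewhere. RAB3B, a granule GTPase, had a median of 92.3 TPM against at most 1.03, and BAIAP3, which acts in dense-core vesicle traffic, a median of 188 against at most 7.96. VAMP2, RAB3A, RAB3D, RAB27A and CADPS2 were tested and not enriched. RAB27A, a granule GTPase also used by immune cells, was at 39.8 to 262 TPM in brain and up to 94.5 in lymph. RAB3A missed the set at a smallest difference of 1.94.

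Of 22 receptors of hypothalamic and feedback signals, 7 were matched, 5 were tested and 2 were enriched, beside 9.09% of all genes tested. GNRHR, the receptor for gonadotropin-releasing hormone, was at 7.06, 26.7 and 44.1 TPM against at most 4.06 in lymph. S0384 (7.06) and S0326 (7.60) were the low libraries and the other 6 lay at 22.4 to 44.1. DRD2, the dopamine receptor through which dopamine restrains prolactin release, was at 61.8, 108 and 208 TPM against at most 3.38. DRD2 was lowest in S0384 (61.8 TPM), as PRL was, but stood at 132 in S0326. The glucocorticoid receptor NR3C1, THRB and ADCYAP1R1 were tested and not enriched, at smallest differences of -0.27, 0.86 and -0.86.

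**Figure D2:**
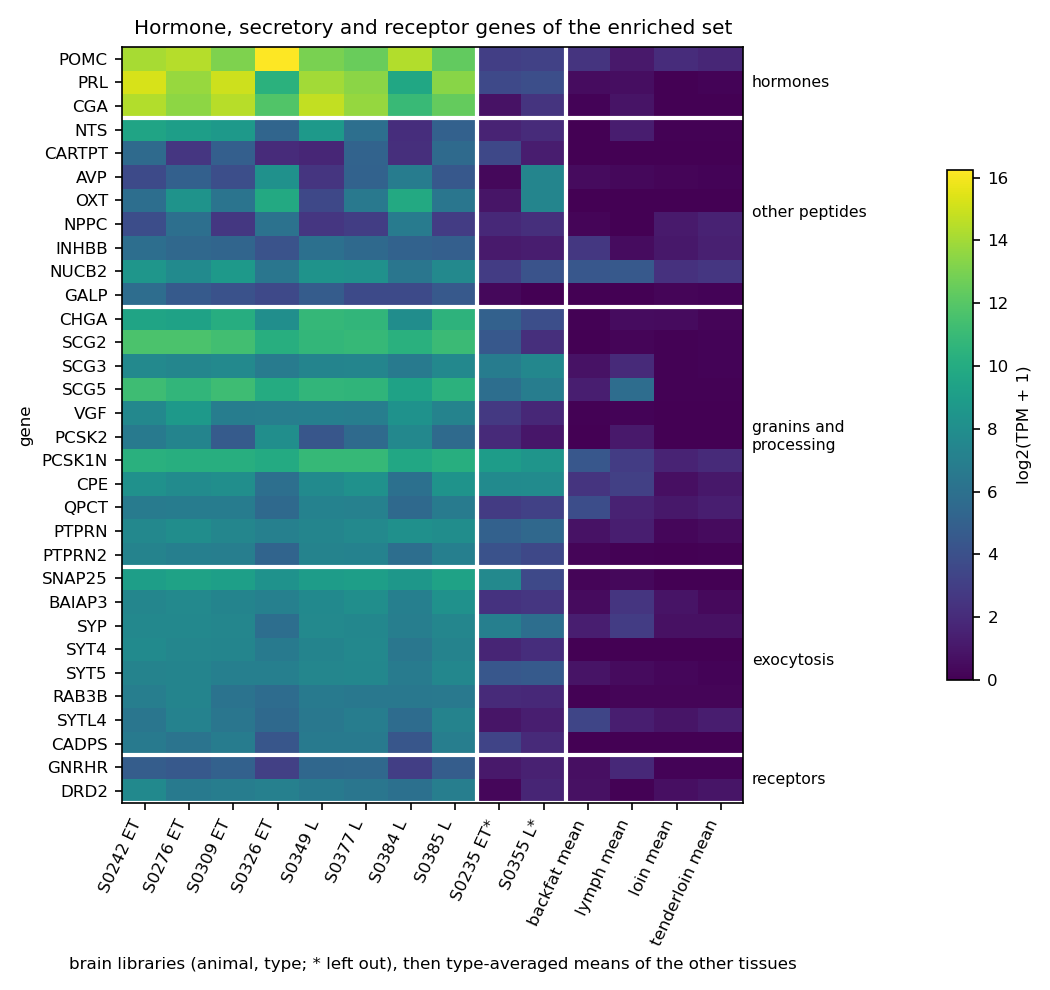
Heat map of log2(TPM + 1) for the named hormone, peptide, granule, exocytosis and receptor genes (rows) in the 8 brain libraries, the brain libraries left out (asterisks) and the means of the other tissues (columns). Brighter cells are higher, and OXT and AVP are brightest in S0326 and S0384, where PRL and CGA are dimmest among the 8.

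Of 45 transcription factors of pituitary lineages, 26 were matched, 23 were tested and 17 were enriched, beside 9.09% of all genes tested. For 16 of the 17 every brain library lay above all others, as it did in 1074 of the 1223 enriched genes. PITX1, a paired-like homeobox factor of early pituitary development, was at 54.3, 154 and 238 TPM in brain (lowest, median and highest) and reached 25.4 in tenderloin. Its low values were those of S0384 (54.3) and S0326 (108), and the other 6 lay at 113 to 238.

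NR5A1, the nuclear receptor of gonadotrophs, was at 7.03, 37.2 and 52.2 TPM against at most 0.294 elsewhere. As for GNRHR, and for 52.7% of the enriched genes, S0384 (7.03) and S0326 (8.52) were the low libraries. The other 6 lay at 30.7 to 52.2. EGR1, an immediate-early factor that also acts on the gene of the luteinising hormone beta subunit, was at 378, 673 and 980 TPM against at most 211. INSM1, a factor of endocrine cell differentiation, was at 72.4, 143 and 169 TPM against at most 0.926. The zinc-finger genes MYT1, ST18 and PEG3 had medians of 20.2, 19.3 and 171 TPM. EYA1, a transcriptional coactivator, had a median of 47.4 TPM against at most 7.65, and its smallest difference of 2.96 became 1.81 with median-ratio scaling.

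The homeobox genes of the ventral forebrain and posterior lobe had another order. NKX2-1, needed for the hypothalamus and the posterior lobe, was at 1.71, 17.3 and 158 TPM, with 158 in S0384, 125 in S0326, 40.4 in S0276 and the other 5 at 1.71 to 21.3. LHX2, needed for the posterior lobe, was at 2.63, 28.7 and 197 TPM, with 197 in S0384, 191 in S0326 and 56.4 in S0276. Neither gene exceeded 0.0534 TPM in the other tissues. SOX2, a factor of pituitary stem cells and neural progenitors, was at 60.6, 91.3 and 205 TPM and SIX3 at 46.6, 76.7 and 119, again highest in S0326 and S0384. SIX6 was even, at 14.5 to 26.2 TPM. SOX2 was also present in the brain libraries left out (50.9 and 129 TPM), as was LHX2 (36.3 and 35.1), whereas NR5A1 was listed at 0 in both and PITX1 was at 0.0961 and 0.0634.

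The immediate-early nuclear receptors NR4A1 and NR4A2 were at medians of 584 and 172 TPM, with 1615 and 648 in S0326. NR4A1 reached 313 TPM in a tenderloin library. Among the 6 factors tested and not enriched were GATA2, SOX4, FOXO1, EYA4 and PROX1. EYA4, for example, was at 8.31 to 45.3 TPM in brain and reached 105 in loin, with a smallest difference of -1.18. SOX11, ZBTB20 and ONECUT2 were under the level needed for testing, and the other 19 factors, among them POU1F1, TBX19 and LHX3, were not analysed here.

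The deposited annotation gave a DNA-binding transcription factor term to 59 enriched genes. They were 4.82% of the set, beside 5.58% of all genes tested. The 12 with the largest smallest difference that were on no list were MSX1, RFX4, STOX1, RORB, ELF3, ETV1, HEY2, FOS, ETV4, NKX2-2, ARNT2 and DACH1. MSX1, a homeobox factor, was lowest in S0384 and S0326 (66.1 TPM in the latter), with a median of 256 and a highest value of 316, against at most 9.05 elsewhere. RORB, an orphan nuclear receptor, varied little, at 22.1 to 33.3 TPM against at most 0.317. RFX4, a winged-helix factor, was at 21.1 to 45.2 TPM against at most 0.532.

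NKX2-2 was at 1.74 and 2.12 TPM in S0326 and S0384 and at 6.63 to 37.3 in the other 6, the reverse of NKX2-1. ETV1 and ETV4 are related ETS factors that differed in order: ETV1 was lowest in S0384 and S0326 (88.7 and 103 TPM) and ETV4 highest there (230 and 161). FOS, an immediate-early factor, was at 400 to 1137 TPM in brain, but a tenderloin library reached 1065, so the groups overlapped.

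**Figure D3:**
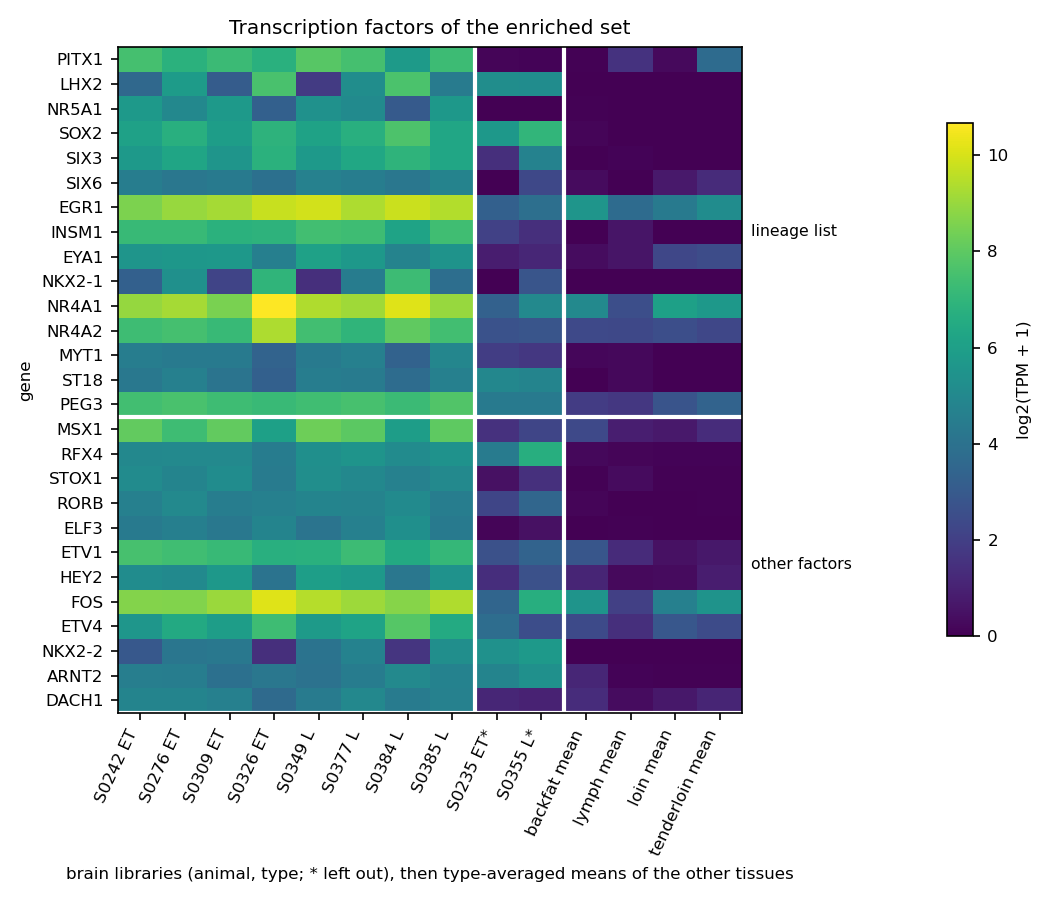
Heat map of log2(TPM + 1) for the named transcription factors (rows), with columns as in the heat map of secretory genes. NKX2-1 and LHX2 are brightest in S0326 and S0384, NR5A1 is dimmest there, and NR5A1 and PITX1 are dark in the brain libraries left out.

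By abundance the enriched set was led by POMC, NNAT, PRL, CGA, the GNAS1 entry, CLU, SCG2, CRYM, SCG5 and PCSK1N. NNAT, the imprinted membrane protein neuronatin, was at 6930, 19882 and 28527 TPM against at most 260 in backfat. CRYM, which binds thyroid hormone in the cytosol, was at 103, 735 and 5235 TPM, with 5235 in S0326, 5191 in S0384 and 103 to 1392 in the other 6. Its lowest brain value lay under the highest backfat value of 198. CLU, clusterin, was at 1348 to 3539 TPM against at most 604. The GNAS1 entry, which Swiss-Prot names for the extra-large form of the stimulatory G protein alpha subunit and which here sums 4 transcripts whose isoform was not checked, was at 2458 to 5737 TPM against at most 1135, and its smallest difference of 2.08 became 1.39 with median-ratio scaling and 1.98 without S0326 and S0384.

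By smallest difference the set was led by PRL (12.48 log2 units), CGA (12.43), POMC (11.33), SCG2, NNAT, CHGA, DIRAS3, RESP18, SNAP25 and SPOCK3. DIRAS3, an imprinted small GTPase, was at 469, 969 and 1202 TPM against at most 3.18. RESP18, a protein of endocrine granules, was at 150, 499 and 786 TPM and was listed at 0 in every other tissue library. SPOCK3, a testican proteoglycan, was at 130, 274 and 313 TPM against at most 0.350. At the other end, ARL9, PGAP4 and TECTA lay just inside the limit and TTLL3, STAC2 and ARMD1 just outside it, all equal to it after rounding. ARL9 had a median of 32.9 TPM in brain against at most 15.7 elsewhere, and TTLL3 one of 196 against at most 100.

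The set as a whole held genes of modest abundance beside these. The median of the mean levels was 28.1 TPM, and 193 of the 1223 genes were above 100. Together the enriched genes took 12.03% to 19.48% of TPM in a brain library and 0.260% to 1.1% in the others. In 1074 of them every brain library lay above all 37 others. The nearest other tissue was backfat for 589 genes, lymph for 461, tenderloin for 87 and loin for 86. TPM is a share, and the median over all genes was already higher in brain, by 0.75 log2 units against backfat, 0.50 against lymph, 1.29 against loin and 1.33 against tenderloin. With median-ratio scaling these became 0.12, 0.12, 0.32 and 0.25, and 756 of the 1223 genes remained.

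By annotation terms, 38 of the 165 tested genes with a secretory granule term were enriched (23.0% of them, and 3.11% of the set beside 1.23% of all genes tested) as were 43 with a synaptic vesicle term (3.52% of the set beside 1.20%). A hormone activity term was held by 6 genes, PRL, POMC, VGF, GALP, NPPC and INHBB (0.491% beside 0.223%), an ion channel term by 33 (2.70% beside 0.825%) and an extracellular term by 167 (13.7% beside 9.84%). These shares are descriptions of a set chosen on the same contrast.

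Neuronal genes were also in the set: 6 of the 8 matched members of the neuron list, of 18 listed, were enriched, beside 9.09% of all genes tested. NEFH and CAMK2A were not, and 4 members were enriched with median-ratio scaling. The list summed to 409 to 700 TPM in the 8 brain libraries and to 193 to 579 in loin. NEFM, the medium neurofilament, was at 146, 209 and 346 TPM against at most 0.321 elsewhere, and MAP2, a dendritic cytoskeletal protein, at 89.2, 127 and 141 against at most 1.92. Of the pituicyte list, SCN7A and NKX2-1 were the matched members and both were enriched, SCN7A at 4.21 to 19.4 TPM with a smallest difference of 2.01. The list summed to as much as 8.29 TPM in backfat, where NKX2-1 did not exceed 0.0288, so SCN7A overlapped with backfat. With median-ratio scaling NKX2-1 remained enriched and SCN7A did not. From the folliculostellate and stem cell list SOX2, SOX9 and ALDH1A1 were enriched, and S100B, ANXA1 and ALDH1A2 were not. With median-ratio scaling SOX2 alone of this list was enriched, and without S0326 and S0384 2 members were. ALDH1A1, a retinoic acid-forming enzyme, was at 122, 743 and 1095 TPM. No tested member of the astrocyte, muscle, adipocyte, lymphocyte, blood or endothelium lists was enriched, and of the oligodendrocyte list 1 was, CLDN11. CLDN11 was not enriched with median-ratio scaling. The part of these cell types in the set was not tested.

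The division within the 8 libraries ran through all gene groups named above. Of the 76 enriched genes that the naming rule selects, 14 were higher in S0326 and S0384 than in each of the other 6 (AVP, OXT, NPPC, PCSK2, LHX2, SOX2, SIX3, NKX2-1, NR4A1, NR4A2, ELF3, ETV4, CLU and CRYM), and 41 were lower in both. They made up 18.4% and 53.9% of the 76, beside 9.57% and 52.7% of the enriched set. Over all genes tested the shares were 10.7% and 34.2%, so low values in both libraries are not particular to the named genes. POMC, VGF, PTPRN, INSM1 and DRD2 were among the named genes that did neither. S0276 stood next to that pair in 8 of the 14, OXT and NKX2-1 among them, and other libraries did in the remaining 6. GFAP was at most 43.6 TPM in these libraries, and the part of region, cell type or dissection in the division was not tested.

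**Figure D4:**
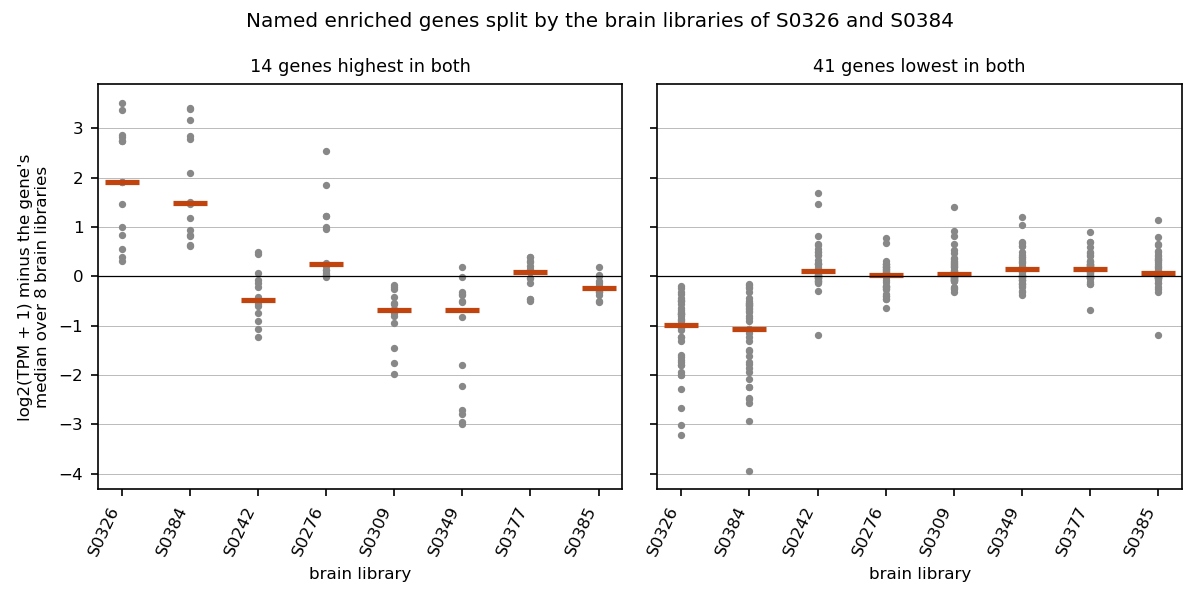
Enriched genes that the naming rule selects, each as log2(TPM + 1) minus its median over the 8 brain libraries (y axis), by library (x axis), for the 14 genes highest and the 41 lowest in both S0326 and S0384. Grey points are genes and bars are medians over the genes, which were sorted into panels by these same values. In the left panel S0276 lies nearest to the pair for several genes.

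The brain libraries left out took no part in the fit, but they were set apart by their measured profile, so low hormone values in them belong to that choice and are no independent comparison. Of the 1223 enriched genes, 327 exceeded every other tissue by 2 log2 units or more in both of them as well (26.7%), 266 did in 1 of them and 630 in neither. Over all genes tested, 3.74% did so in both and 7.61% in at least 1. NEFM was at 44.4 and 13.7 TPM in S0235 and S0355, SNAP25 at 204 and 11.3 and SYP at 130 and 56.9. By list, 10 of the 21 enriched exocytosis genes, 6 of the 11 granule genes, 4 of the 17 lineage factors and 0 of the 7 peptide genes exceeded every other tissue in both. Among the lineage factors the levels ran from 0 (NR5A1) to 50.9 and 129 TPM (SOX2), with ST18 at 29.7 and 26.7 and PEG3 at 20.3 and 20.2.

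ET and L animals were compared within the 8 brain libraries (4 against 4). The choice of genes averaged the types, but a gene high in either type can enter the set through that type. No gene passed (limma, 0 of 13098 tested), and the lowest adjusted p in the set was 0.585. At an unadjusted p under 0.05 there were 1079 genes (8.24%), 55 higher (0.420%) and 1024 lower (7.82%) in ET. In the enriched set there were 81 of 1223 (6.62%), 7 higher and 74 lower. The median difference of ET minus L was -0.18 log2 units in the set and -0.19 over all genes.

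POMC had a mean of 31803 TPM in ET and 10241 in L, a difference of 1.41 ± 0.69 log2 units (SE, adjusted p = 0.620, limma), and the types overlapped. PRL had means of 22010 and 9614 TPM and CGA of 15111 and 12180, with adjusted p of 0.839 and 0.855, and both overlapped. The 5 enriched genes with the smallest p were KCNF1, FREY1, CFA74, SSC5D and IGDCC3. In L libraries alone KCNF1 had a smallest difference of 1.73, and in ET libraries alone SSC5D had 1.71. Both are under the limit of 2, so these genes entered the set through the type in which they were higher. KCNF1, a modulatory subunit of voltage-gated potassium channels, was at 17.9, 11.3, 8.49 and 6.35 TPM in the ET libraries and 3.35, 1.23, 3.84 and 2.36 in the L libraries, without overlap. Its difference was 1.67 ± 0.35 log2 units (SE, adjusted p = 0.585, limma), and 0.227 TPM was its highest value elsewhere. It was 1 of 3 genes (0.0223% of 13448) called for a difference between brain and the other tissues that depended on type. That fit takes 1 spread for all tissues, and KCNF1 was near 0 outside brain. The call is thus not separate from the difference within brain, which did not pass.

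FREY1, a membrane protein known from sperm, was at 82.0 to 132 TPM in ET and 49.1 to 68.1 in L. CFA74, a cilium protein, was at 28.7 to 45.2 TPM in ET and 49.8 to 74.3 in L. SSC5D and IGDCC3 were lower in ET in the same way, by 0.52 ± 0.13 and 0.72 ± 0.18 log2 units (SE). None of the 5 overlapped between types, and all had an adjusted p of 0.585 (limma). They were picked for their small p, and a lack of overlap is expected from that choice. The share of all genes without overlap is not given here.

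**Figure D5:**
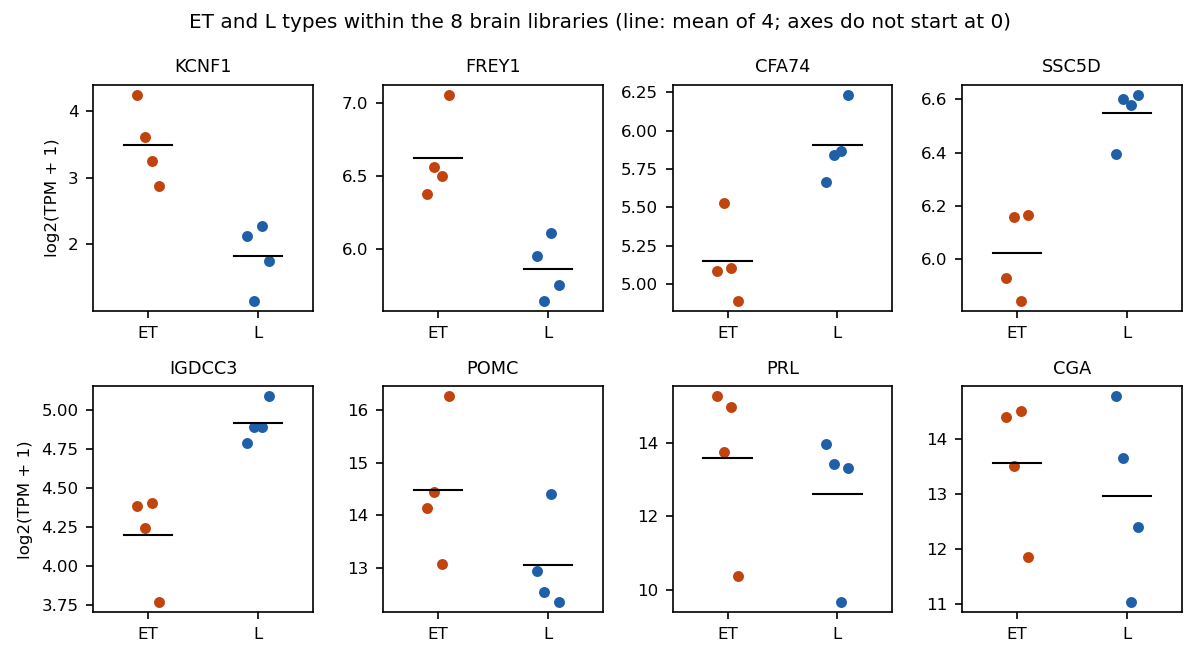
Levels as log2(TPM + 1) in the 4 ET and 4 L brain libraries (points, with a line at the mean) for the 5 enriched genes with the smallest p and for POMC, PRL and CGA. The types do not overlap in the 5 genes, which is expected from their choice by p, and overlap in the 3 hormones. No gene passed adjustment over 13098 genes.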

How the data were processed

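The authors deposited TPM per assembled transcript, and per the submitters' processing notes reads were trimmed with Trimmomatic 0.36 and quantified with Salmon 1.10.0. These notes name Sscrofa11.1, a build whose role was not given in the sources used here. RNA was extracted with TRIzol for stranded mRNA libraries, per the labels' protocols. TPM keeps no depth, so read depth is unknown.

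Each transcript took the Swiss-Prot entry of its best BLASTX hit (E value at most 1e-10), and TPM were summed by entry, whatever the species of the entry. This used 32158 of 57085 transcripts, gave 14415 genes and covered 80.3% to 85.0% of TPM in the 8 brain libraries. Hits to repeat or retroviral proteins (2419) and from outside animals (43) were left out. Median identity was 92.9%, so a name stands for the closest described protein and near-identical genes may be mixed. Positions come from the RefSeq table of Sscrofa11.1.

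Differences were fitted with limma 3.58.1 (R 4.3.3) on log2(TPM + 1), with a trend, over genes of mean TPM of at least 1 and 45 libraries, with Benjamini-Hochberg adjustment over all genes. A difference on this scale understates the change of low genes. The test was checked on simulated data. Genes named are the enriched members of 5 lists (hormones, peptides, granule genes, lineage factors, receptors), the 8 most abundant exocytosis genes, the 12 other transcription factors and up to 8 other hormone-term genes of largest smallest difference, the 10 leading genes by level and by difference, 3 on each side of the limit, and the 5 of smallest p between types. A few genes chosen this way are not reported here. The members, libraries and lists were chosen with earlier results of these data known. The labels give 1 library per animal and tissue. Since each animal gave every tissue, its number pairs the samples: departures from group means correlated with a median r of 0.15 between brain and other tissue of the same animal (32 pairs, -0.01 to 0.41) and -0.03 between animals (264 pairs). Pseudocount, filter, scaling, thresholds, matching, trend, animal block, types and omitted libraries were varied.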

Additional observations from a re-analysis of the deposited data

Results flagged for a closer look

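Of 79 genes examined, 8 had a brain library far from the other 7 on the scale of TPM. The chance rate of about 1 in 20 holds for normally distributed values. It does not carry over to TPM of genes that vary together, so the count is not compared with it. S0326 was high for POMC (77973 TPM, next 22387), AVP (301, next 111), NR4A2 (648, next 263), FOS (1137, next 710) and the GNAS1 entry (5737, next 3071), and low for PGAP4 (15.5, next 22.9). S0384 was high for SOX2 (205 TPM, next 118), and S0242 for GALP (54.8, next 25.6).

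The difference of KCNF1 between brain and the mean of the other tissues depended on type in the fit over 45 libraries, by 1.67 ± 0.19 log2 units (SE, adjusted p = 8.61e-07, limma), with ET above L in brain. That fit takes 1 spread for all tissues, and KCNF1 did not exceed 0.227 TPM outside brain. Within brain alone, the difference had an adjusted p of 0.585. KCNF1 was 1 of 3 genes, of 13448, to pass that test, and the only enriched gene among them.

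Transcripts without a usable protein match entered no comparison. Of 24927 such transcripts, 749 exceeded every other tissue by 2 log2 units or more in the brain mean, and they took 2.16% to 3.06% of TPM in a brain library and at most 0.215% in the others. The most abundant, of 527 bases, was at 547 to 2949 TPM in brain and at most 352 elsewhere.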

How the results depend on the processing

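The count of 1223 enriched genes was 699 over genes of mean TPM of at least 5, 756 with median-ratio scaling, 2719 with a limit of 1 log2 unit and 592 with 3. It was 1470 with a pseudocount of 0.1, 1093 with all 50 libraries, 1076 in ET libraries alone and 1391 in L alone (996 in both, 92.6% of the ET set and 71.6% of the L set), and 1190 to 1298 when each animal was left out. With the animal as a replicate block 1215 genes were enriched, 1208 of them shared. ARL9, PGAP4 and TECTA fell under the limit there, at 1.98, 1.99 and 1.97, and no other named gene did. With all libraries 6 genes that the rule names fell under it, among them PITX1 (1.97), INHBB (1.95) and the GNAS1 entry (1.95), and in ET alone 4 named genes did, among them QPCT (1.70). No named difference from the nearest tissue changed sign in the settings run.

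No gene passed between ET and L in brain under the alternatives run, with 2 exceptions. With 1 transcript per gene 1 gene passed, CA210, an enriched gene (difference 3.74, adjusted p = 0.0449, limma), which differed by 0.14 with all its transcripts. Without the brain libraries of S0326 and S0384, an alternative chosen after seeing the data, 1 gene passed, 3HAO, which was not enriched, and 2026 genes were at an unadjusted p under 0.05. No paired analysis was possible for ET and L because they are different animals. Read depth is unknown, so the precision of low values cannot be given.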

Other observations

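Enriched genes and a lymphocyte gene lay next to hormone genes that were not analysed here, an observation made after the values were seen. RUVBL2, a chromatin ATPase, was at 173 TPM in the lowest brain library (S0384), 1047 at the median and 2491 in the highest (S0309), against at most 47.5 elsewhere. A transcript of 2403 bases held 1147 of its mean of 1201 TPM. RefSeq places RUVBL2 81 bases from LHB, the beta subunit of luteinising hormone, on chromosome 6. RUVBL2 was lowest in S0384 and S0326 (173 and 478 TPM), where CGA, NR5A1 and GNRHR were also lowest. Of all enriched genes 52.7% were lowest in both, so this order is not particular to these genes.

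CD79B, a B cell receptor component, was at 5.10 to 189 TPM in brain, while the B cell gene MS4A1 was at most 1.13. RefSeq places it 8523 bases from GH1, the growth hormone gene, on chromosome 12. TSPAN2, an enriched tetraspanin gene at 1.29 to 22.5 TPM, lies 10948 bases from TSHB on chromosome 4. What these transcripts hold of the neighbouring genes was not tested.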
